A study of Mus musculus with 18 samples.

Results

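The comparison set the intermediate cells of a chemical reprogramming course, collected on days 8 and 10, against the pluripotent cells that such a course is meant to yield. Its members were chosen by label: both libraries of day 8 (D8), both of day 10 (D10), both of the induced pluripotent stem cells (riPSC) and both of the embryonic stem cell line (mESC), 8 of the 18 RNA sequencing libraries of the series. The other 10 libraries, of days 0, 2, 4, 6 and 12, entered only the estimate of spread and the account of where each gene stood along the course. All libraries hold total RNA of mouse cells.

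The D8 and D10 cells are labelled as reprogramming intermediates and derive from embryonic fibroblasts of E13.5 embryos of the strain 129XOG2. OG2 mice carry a green fluorescent reporter under the control of Pou5f1 sequences. The riPSC libraries carry the same strain label and the cell type iPSC, and the mESC libraries come from R1, an established line derived from a mouse blastocyst. The lines were kept on a layer of feeder cells in a serum-free medium with leukemia inhibitory factor, the GSK3 inhibitor CHIR99021 and the MEK inhibitor PD0325901. The intermediates were grown in a reprogramming medium whose composition is not given in the sources used here. Cell state, medium and feeder layer therefore change together between the sides, and their parts in any difference below cannot be told apart. The labels do not say whether the 2 libraries of a group came from separate cultures or whether riPSC is 1 clone, so a p-value speaks only of how these samples scatter, and that scatter may be technical.

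Naive mouse pluripotency rests on a set of transcription factors, among them Pou5f1, Sox2, Nanog and Esrrb, that bind each other's genes and keep each other on. The extraembryonic endoderm is the other lineage that arises from the inner cell mass. It is built by Gata6, Gata4, Sox17 and Foxa2, lays down a basement membrane rich in laminin and type IV collagen, and takes up and exports lipids and proteins for the embryo. Chemical reprogramming of mouse fibroblasts is known to pass through epithelial cells with features of that endoderm before pluripotency is reached.

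Levels are the deposited values, taken to be FPKM, which divide the fragments of a gene by the length of its transcript and by the fragments of the library. Depth was estimated from the value of 1 read pair in single-exon genes, and came to between 16400000 and 20700000 pairs in the 8 libraries. For a transcript of 1 kb, 1 pair was worth 0.0482 to 0.0608 FPKM. Differences are on the log2(FPKM + 1) scale, D8 and D10 minus riPSC and mESC, with standard errors from limma, and understate the change of low genes. The call rule asked for an adjusted p below 0.05 (limma, Benjamini-Hochberg over all 16439 genes tested) and a difference of at least 2-fold on that scale. Only a called gene is said to have been higher or lower, or to have risen or fallen; "above" and "below" compare single libraries. Each value after ± is a standard error, and each adjusted p is from this fit. A listed 0 can be a failed estimate as well as an absence: mt-Nd2, a mitochondrial gene that every cell uses, is listed at 0 in each of the 8 libraries. No fold is given against a side listed at 0 in all 4 libraries.

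Make-up differed between the sides. Transcripts of mitochondrial DNA took 50.2 to 52.4% of the FPKM sum in D8 and D10 and 27.0 to 35.8% in the lines, without overlap (exact permutation test, two-sided, p = 0.0286, the smallest that 4 against 4 libraries allow). A single short gene, mt-Nd4l, made up 41.9 to 44.0% and 20.03 to 27.7% of the sum. The other mitochondrial genes took 8.26 to 8.71% and 7.01 to 8.13% of the whole sum, or 14.2 to 15.4% and 8.77 to 11.2% of the sum without mt-Nd4l. Weighted by exonic length, which removes the extra weight of short transcripts, the shares were 11.1 to 11.98% and 3.91 to 5.68%. Genes of cytosolic ribosomal proteins took 4.67 to 5.19% and 9.15 to 10.9% of the sum (p = 0.0286 by the same exact test). That share depends on the FPKM sum, which was 1068923 to 1149566 in D8 and D10 and 652910 to 775335 in the lines, mt-Nd4l included. The ribosomal protein genes themselves summed to 50951 to 57111 FPKM against 65678 to 73248, a smaller gap in proportion than that of the shares. The median difference of all genes was 0.00; with the mitochondrial genes left out of the scaling it was -0.11. The 2335 coding genes of the longest exonic length had a median difference of 0.18.

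Of 16439 genes, 2533 (15.4%) were higher in D8 and D10 than in the pluripotent lines and 2324 (14.1%) were lower. These 2 shares are the background for every count of called list members below. Taken against each line alone, 2515 (15.3%) were higher and 2492 (15.2%) lower than in riPSC, and 2603 (15.8%) were higher and 2295 (14.0%) lower than in mESC. The differences within the sides were fewer. Between the lines, 303 genes (1.84%) were higher and 197 (1.20%) lower in riPSC than in mESC, and between the days, 70 (0.426%) were higher and 400 (2.43%) lower in D10 than in D8. The 4 and 4 libraries did not overlap at all for 5311 genes with D8 and D10 above (32.3%) and for 5464 with D8 and D10 below (33.2%). Among the called genes 2497 of the 2533 higher ones and 2279 of the 2324 lower ones showed no overlap. The higher genes included 814 with at least a 4-fold and 113 with at least a 16-fold difference, the lower ones 572 and 79.

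**Figure D1:**
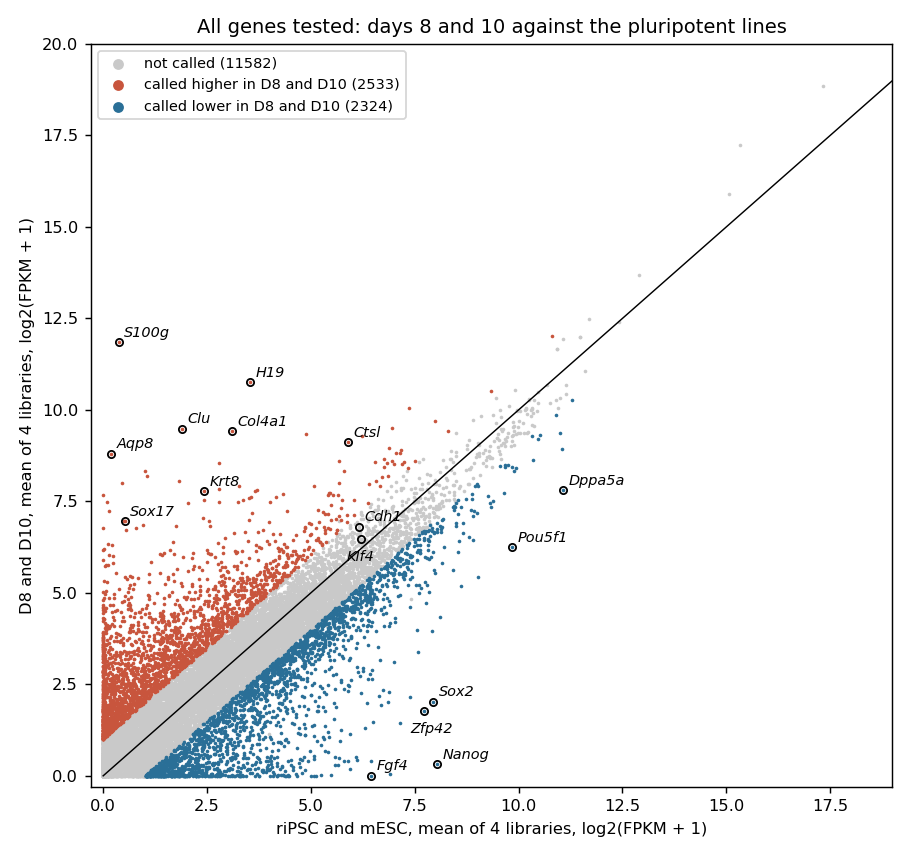
Mean level of every tested gene in the 4 libraries of riPSC and mESC (x axis) and in the 4 libraries of D8 and D10 (y axis), both in log2(FPKM + 1); the line marks equal levels and circles mark labelled genes. The 2533 higher genes lie above the band of uncalled genes and the 2324 lower ones below it, with S100g and Nanog at the far ends.

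The single largest difference was in S100g, which encodes the vitamin D-dependent calcium-binding protein calbindin D9k of absorptive epithelia. Its level was 3702 and 3824 in D8 and 3677 and 3576 in D10, against 0 and 0 in riPSC and 0.661 and 0.699 in mESC. The gene lies on the X chromosome (chrX:162961992-162964599, mm10), and its difference to mESC was 11.10 ± 0.08, adjusted p = 1.65e-16. All 4 intermediate libraries were within 3576 to 3824, and no library of the lines reached 1 FPKM.

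The other genes at the high end mix transport, secretion and developmental control. Aqp8, a water channel of absorptive epithelia, stood at 481 and 497 in D8 and 394 and 423 in D10, against 0 and 0.0953 in riPSC and 0.172 and 0.332 in mESC, a difference of 8.61 ± 0.07, adjusted p = 6.42e-16. Car4, a membrane-bound carbonic anhydrase, showed 139.7 to 159.8 against 0.0581 to 0.155. Clu, a secreted chaperone, showed 565 to 907 against 1.31 to 5.13. Pitx1, a homeobox factor of the hindlimb and pituitary, reached 227 to 282 in the intermediates and at most 0.648 in the lines. Srgn, a proteoglycan of secretory granules, ran from 279 to 316 against 0.865 to 1.28. Pth1r, the receptor for parathyroid hormone and its related peptide, ran from 98.3 to 153 against 0.215 to 0.813. For each of these genes the lowest D8 or D10 library was far above the highest library of the lines, with differences of 7.10 for Car4, 7.59 for Clu, 7.54 for Pitx1, 7.14 for Srgn and 6.44 for Pth1r. Sprr2a2, of the small proline-rich family of squamous epithelia, stood at 445 and 224 in D8 and 135.3 and 123 in D10 and was listed at 0 in all 4 line libraries. Its family holds near-identical copies, so reads may be split among them and the value is uncertain. Cyp26a1, Igf2, H19 and Sox17 complete the 12 highest and are described with their pathways.

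At the low end stood Nanog, the homeobox factor of the naive state (chr6:122707489-122714633). It was at 0.217 and 0.308 in D8 and 0.160 and 0.280 in D10, against 273 and 275 in riPSC and 239.7 and 267 in mESC, a difference of -7.73 ± 0.06, adjusted p = 5.97e-16. Apart from the pluripotency factors described below, the low end held genes best known from the germ line. Rpl10l, a retrotransposed copy of Rpl10 used in male meiosis, showed 0 to 0.0728 against 102 to 140.0. Rbmxl2, an RNA-binding protein of spermatogenesis, showed 0.145 to 0.502 against 67.0 to 108. Both are copies of other genes, and reads of a parent gene can be counted for a copy. Tuba3a, a tubulin of the testis, showed 0.274 to 0.552 against 46.3 to 95.5. Platr10, a noncoding RNA of pluripotent cells, had 0.0387 to 0.372 against 53.1 to 66.6. Pla2g1b, a secreted phospholipase, had 0.0722 to 0.443 against 55.5 to 64.4. No library of D8 or D10 reached 1 FPKM in Nanog or any of these 5 genes, and the lowest line library held 46.3.

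**Figure D2:**
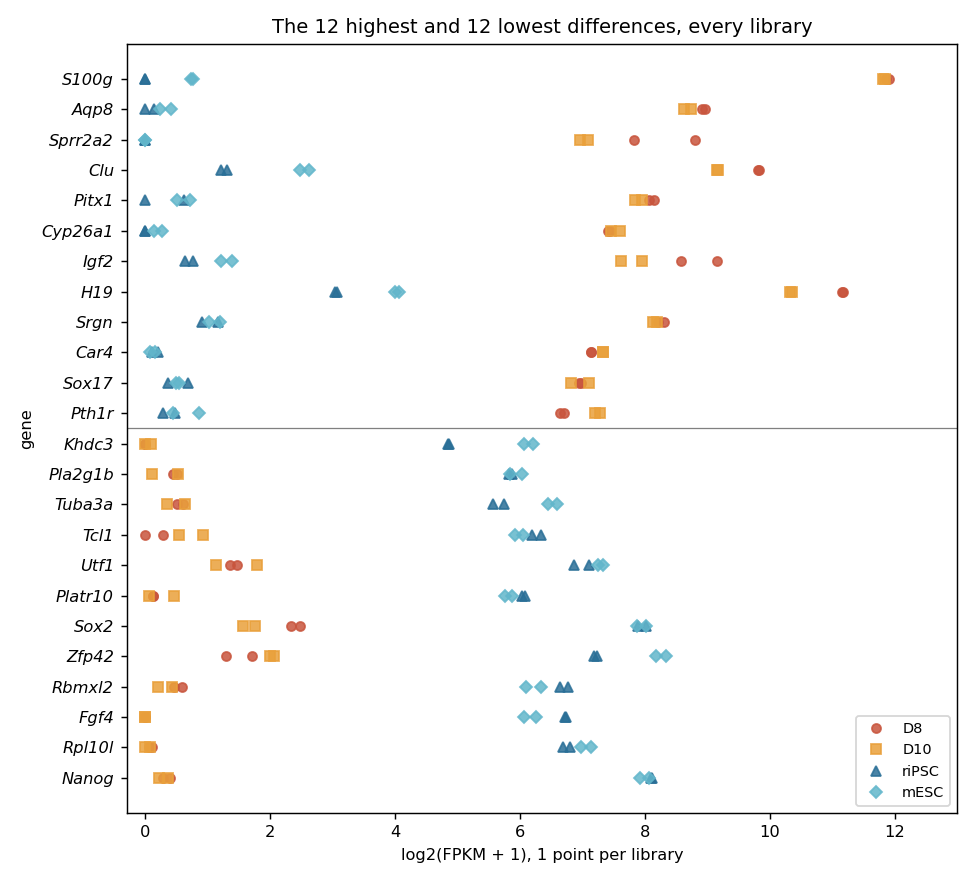
Level of the 12 genes with the highest and the 12 with the lowest differences (mean of at least 10 FPKM on the higher side, no overlap) in log2(FPKM + 1), with 1 point per library and symbols by group. S100g reached 3576 to 3824 FPKM in D8 and D10, and the sides do not overlap in any of the 24 genes because the choice of genes required it.

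To show what lies in front of genes that separate the sides, the 250 bases before the annotated start of 4 of them are given here 5′ to 3′ from RefSeq (GRCm38.p6), 1 for each motif class and a second for the octamer, chosen after their values were seen because each window holds a match. Zfp42 was lower in D8 and D10, and Cdx2, Krt8 and Col6a1, a chain of type VI collagen (19.5 to 71.8 against 3.47 to 9.06, 2.51 ± 0.24, adjusted p = 1.03e-06), were higher. Capitals mark the octamer ATGCAAAT, read by POU factors such as Pou5f1, the letters AGATAA, read by GATA factors, and TGACTCA, read by AP-1 factors, each searched on both strands.
Zfp42, chr8:43307010-43307259, minus strand: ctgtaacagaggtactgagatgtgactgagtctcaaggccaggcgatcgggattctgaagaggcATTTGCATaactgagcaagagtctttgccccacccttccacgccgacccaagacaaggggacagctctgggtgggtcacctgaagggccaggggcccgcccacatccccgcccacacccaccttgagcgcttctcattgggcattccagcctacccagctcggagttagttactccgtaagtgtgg
Cdx2, chr5:147307250-147307499, minus strand: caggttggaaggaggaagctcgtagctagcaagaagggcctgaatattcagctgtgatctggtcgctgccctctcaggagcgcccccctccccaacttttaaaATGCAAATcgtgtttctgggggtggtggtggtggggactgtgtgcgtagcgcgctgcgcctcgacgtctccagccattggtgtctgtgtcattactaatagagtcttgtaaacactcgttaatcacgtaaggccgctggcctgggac
Krt8, chr15:102004343-102004592, minus strand: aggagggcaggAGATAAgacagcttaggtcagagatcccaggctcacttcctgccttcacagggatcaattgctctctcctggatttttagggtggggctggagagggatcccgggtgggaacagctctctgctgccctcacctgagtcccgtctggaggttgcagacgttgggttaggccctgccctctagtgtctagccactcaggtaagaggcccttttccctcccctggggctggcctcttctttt
Col6a1, chr10:76726045-76726294, minus strand: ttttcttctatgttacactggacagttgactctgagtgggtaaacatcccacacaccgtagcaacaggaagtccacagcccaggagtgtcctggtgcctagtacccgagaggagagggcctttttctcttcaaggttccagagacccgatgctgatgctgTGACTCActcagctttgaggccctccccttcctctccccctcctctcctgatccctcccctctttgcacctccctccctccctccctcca
The octamer began 186 bases before the start in Zfp42, on the opposite strand, and 147 bases before it in Cdx2, so the same letters stood before a gene that was lower and one that was higher. Windows of this length were at hand for 11255 of the tested genes, 14380 windows in all, of which 2375 belonged to higher and 1974 to lower genes. The octamer was in 1.68% of the windows of higher genes, 1.72% of those of lower genes and 1.36% of those of all tested genes. For the GATA letters the shares were 6.65, 6.79 and 6.11%, with the Krt8 match 239 bases before the start. TGACTCA, found 90 bases before the start of Col6a1, was in 4.84% of the windows of higher and 2.68% of those of lower genes, 3.44% of those of tested genes and 4.46% of all 32841 windows. The CCAAT box, by its letters CCAAT, was in 30.0% of the windows of higher and 40.9% of those of lower genes, against 35.5% of tested ones. A match is a description of the letters and does not show that a factor binds there.

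The pluripotency network was lower in D8 and D10, but to a different degree from gene to gene. Of 17 core and naive transcription factors, 13 were lower and none higher, with a median difference of -2.57 against 0.00 over all genes tested. Pou5f1 was at 44.9 and 45.4 in D8 and 121 and 128 in D10, against 910.2 and 969.5 in riPSC and 855 and 941 in mESC, a difference of -3.59 ± 0.06, adjusted p = 1.19e-13. The D8 and D10 libraries did not overlap each other: D10 stood above D8 and both stood far below the lines. Sox2, the partner of Pou5f1 on many target sites, had its D10 libraries below those of D8, with 4.03 and 4.57 in D8 and 1.94 and 2.38 in D10 against 234 to 258 in the lines (-5.92 ± 0.13, adjusted p = 9.25e-13). Esrrb, a nuclear receptor of the naive state, was at 33.1 and 28.5 in D8 and 40.0 and 45.4 in D10, against 197 to 249 in the lines (-2.57 ± 0.08, adjusted p = 2.45e-11).

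Zfp42 and Klf2, both markers of naive cells, were lower than in the lines by more than Pou5f1 was. Zfp42 was at 1.45 to 3.17 in D8 and D10, at 145 and 148 in riPSC and at 289 and 321 in mESC, so that the lines also differed from each other. Klf2 was at 2.13 to 6.99 against 108 to 125 (-4.58 ± 0.27, adjusted p = 9e-09). The other 4 members of the list were not called. Klf4 showed 103.2 and 104 in D8 and 69.7 and 76.1 in D10 against 67.1 and 74.1 in riPSC and 72.3 and 77.6 in mESC (0.26 ± 0.11, adjusted p = 0.0505), with D8 above the lines and D10 within their range. Klf5 was at 79.0 to 104.5 against 71.7 to 123 (-0.04 ± 0.11). Tbx3 was at 22.4 to 26.2 against 37.4 to 44.9 (-0.71 ± 0.18), and Sall4 at 14.3 to 18.02 against 27.2 to 40.0 (-0.95 ± 0.10).

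All 23 pluripotency-associated genes of the list were lower, with a median of -3.36. In each of them the 4 and 4 libraries did not overlap, as in 33.2% of all genes tested with D8 and D10 below. Fgf4, the ligand that drives ERK signalling in the early embryo, was at 104.7 and 106 in riPSC and 65.8 and 75.2 in mESC and was listed at 0 in all 4 libraries of D8 and D10. Utf1, a chromatin-associated factor, stood at 1.18 to 2.44 against 116 to 159 (-5.70 ± 0.13, adjusted p = 8.64e-13). Tcl1, a coactivator of AKT, stood at 0 to 0.889 against 59.5 to 79.5. Khdc3, of the maternal complex of the egg, was at most 0.0682 in D8 and D10, at 28.0 and 27.7 in riPSC and at 65.6 and 73.1 in mESC. Other members stood at a sizeable level in D8 and D10. Dppa5a, an RNA-binding protein, was at 171 and 172 in D8 and 295 and 282 in D10 against 1721 to 2611 (-3.26 ± 0.09, adjusted p = 8.83e-12). Tdgf1, the Nodal co-receptor, was at 51.0 and 52.8 in D8 and 35.1 and 33.6 in D10 against 449.9 to 582 (-3.59 ± 0.07, adjusted p = 1.65e-13). Lin28a, which blocks let-7 processing, was at 8.49 and 8.92 in D8 and 15.0 and 14.3 in D10 against 36.4 to 52.4 (-1.83 ± 0.06, adjusted p = 6.97e-11).

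Of 11 tested genes of the formative step and the Nodal pathway 5 were lower and 2 higher, with a median of -0.95. Nodal itself was at 0 to 0.480 against 21.4 to 22.4 (-4.22 ± 0.07, adjusted p = 5.69e-14). Lefty2, its feedback inhibitor, was at 11.6 to 25.4 in the lines and listed at 0 in D8 and D10. Otx2, a homeobox factor of the formative state, was also listed at 0 there and at 3.34 to 4.96 in the lines. The higher members were Sox4 (5.86 to 12.53 against 1.91 to 5.11) and Sox3 (2.104 to 4.83 against 0.841 to 1.60). Sox3 lay near the threshold: its difference of 1.05 was 0.84 after quantile normalization and 0.97 with the mitochondrial genes left out of the scaling, and 0.996 without mESC replicate 2, all short of a call. Dnmt3b, a de novo DNA methyltransferase, was not called (-0.95 ± 0.07, adjusted p = 8.06e-08) and showed 5.27 to 7.74 against 10.5 to 17.2 without overlap. With those scalings it was -1.06 and -1.09, and with a pseudocount of 0.1 it was -1.04, and passed. Eomes was at 1.93 to 3.49 against 3.21 to 4.33, not called.

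Germ line genes that promoter methylation keeps silent in somatic cells were low in D8 and D10, and 10 of 13 tested members were lower, none higher, with a median of -1.71. Beside Tuba3a these were led by Hormad1, a protein of the meiotic chromosome axis (0 to 0.131 against 8.13 to 21.7, -3.74 ± 0.07, adjusted p = 1.65e-13). Sycp3 of the synaptonemal complex was at 0.275 to 0.663 against 5.55 to 10.6. Mael of the transposon defence was at 0 to 0.385 against 2.15 to 9.44. In Hormad1, Sycp3 and Mael both riPSC libraries stood above both mESC libraries. The 2-cell-like genes, of which 9 of 15 were tested, gave no call by limma. An unadjusted p under 0.05 was reached by 8 of the 9, against 73.4% of all genes tested. Zscan4f was at most 0.0259 in D8 and D10 and at 0.247 to 1.86 in the lines. The Zscan4 genes are near-identical copies, and their values are uncertain.

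**Figure D3:**
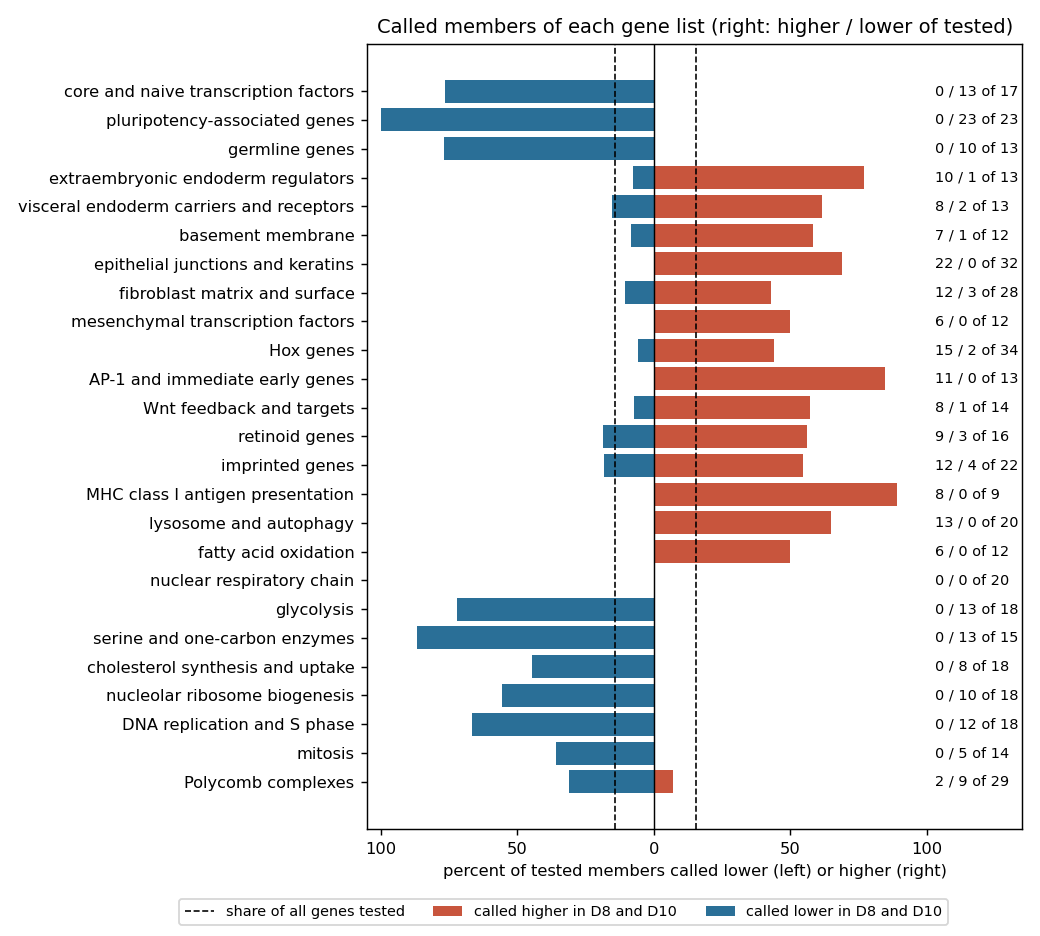
Percent of the tested members of each gene list called higher (right) or lower (left) in D8 and D10, with the counts at the right edge and dashed lines at the shares of all genes tested, 15.4% and 14.1%. Pluripotency, germ line, replication and biosynthesis lists lie to the left, and endoderm, epithelial, AP-1, lysosome and MHC class I lists to the right.

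The regulators of the extraembryonic endoderm were among the lists furthest to the side of the intermediates, with 10 of 13 higher, 1 lower and a median of 4.73. Sox17, an HMG box factor of endoderm, was at 125 and 122 in D8 and 136 and 112 in D10, against 0.285 and 0.608 in riPSC and 0.408 and 0.446 in mESC, a difference of 6.44 ± 0.16, adjusted p = 2.68e-12. Gata4 stood at 113 and 112 in D8 and 111 and 119 in D10, against 0.759 to 1.16 in the lines (5.89 ± 0.09, adjusted p = 3.04e-14). Gata6, the zinc finger factor that opens this lineage, stood at 34.7 and 36.0 in D8 and 49.9 and 50.2 in D10, against 0.279 to 0.626 (4.92 ± 0.13, adjusted p = 5.81e-12). In Gata6 both D10 libraries stood above both D8 libraries, while in Gata4 the days overlapped. Cited1, a transcriptional coactivator, was at 259.6 to 273 against 1.07 to 4.97 (6.24). Pdgfra, the receptor that marks primitive endoderm, was at 102 to 112 against 0.529 to 1.24 (5.97). Foxa2, a forkhead factor of endoderm, was at 16.0 and 17.5 in D8 and 20.02 and 19.3 in D10, against 0 and 0.265 in riPSC and 0.207 and 0.351 in mESC (4.00 ± 0.11, adjusted p = 4.88e-12).

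The list was not uniformly higher. Prdm1, a repressor in several endoderm and germ line fates, was lower (0.239 to 0.987 against 2.39 to 2.88, -1.21 ± 0.21, adjusted p = 0.000213). Hhex, a homeobox factor of anterior visceral endoderm, was not called (1.69 to 3.68 against 4.86 to 5.71, -0.75 ± 0.10), nor was Foxa3, at most 0.791 in D8 and D10.

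Products of the visceral endoderm, the transporting layer of the yolk sac, were higher in 8 of 13 tested members and lower in 2. The median was 1.72, and the shares of all genes tested were 15.4% and 14.1%. The summed level of these 13 members was lower in D8 and D10, at 204 to 229 FPKM against 436 to 584 in the lines, and Apoe made up most of it. Without Apoe the sums were 55.7 to 71.8 and 8.05 to 25.02 FPKM. Lrp2 and Cubn are the paired endocytic receptors of that layer. Lrp2 was at 10.6 to 17.4 against 0.197 to 0.315 (3.58 ± 0.06, adjusted p = 1.38e-13), and Cubn at 4.77 to 7.22 against 0.00493 to 0.0259 (2.76 ± 0.07, adjusted p = 1.44e-12). Apoa4 was at 7.88 and 6.87 in D8 and 3.12 and 3.60 in D10 and listed at 0 in the lines. Spink1, a secreted protease inhibitor, was at 8.34 and 8.61 in D8 and 3.08 and 3.35 in D10 against 0 to 0.141 (2.57). The lower members were Apoe, at 141 to 169.7 against 428 to 559 (-1.68 ± 0.11, adjusted p = 1.81e-08), and Apom (-1.01), whose call was lost on several settings. Apom was -0.79 with the length trend removed, -0.94 with median-of-ratios scaling, and -0.91 to -0.995 without D8 replicate 1, D10 replicate 1, riPSC replicate 2 or mESC replicate 1 in turn. Apoa2 was split between the lines, at 12.9 and 13.9 in riPSC and 0.0858 and 0.133 in mESC, with 2.91 to 8.56 in D8 and D10, and was not called.

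The basement membrane list had 7 of 12 members higher and 1 lower, with a median of 1.69. Col4a1, a chain of type IV collagen, was at 589.7 and 547 in D8 and 793 and 851 in D10, against 5.13 to 10.97 in the lines (6.32 ± 0.12, adjusted p = 2.28e-13). Its partner Col4a2 was at 332 to 428 against 3.93 to 8.65 (5.77 ± 0.12, adjusted p = 3.99e-13). Lama1 and Lamb1 join Lamc1 in the first laminin of the embryo. Lama1 was at 164 and 142 in D8 and 235 and 249.9 in D10, against 5.81 and 6.33 in riPSC and 15.9 and 18.4 in mESC (4.096 ± 0.19, adjusted p = 7.67e-10). Lamb1 was at 188 to 298 against 7.54 to 9.87 (4.65 ± 0.11, adjusted p = 1.58e-12). Both D10 libraries lay above both D8 libraries in each of these 4 genes, and in Lama1 the mESC libraries lay above those of riPSC. The nidogens, which link laminin to collagen, did not follow: Nid2 was lower (12.3 to 24.3 against 72.2 to 97.8, -2.18 ± 0.25, adjusted p = 6.61e-06) and Nid1 was not called (-0.69 ± 0.23). Lamb2 was at 20.5 to 42.1 against 11.48 to 19.97 and fell just short of a call (0.99 ± 0.08).

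Junction and keratin genes of epithelia were higher in 22 of 32 and lower in none, with a median of 1.86. The keratins of simple epithelia led. Krt8, whose promoter is shown above, was at 220.1 and 216 in D8 and 211 and 226 in D10, against 2.59 and 2.80 in riPSC and 6.40 and 7.199 in mESC (5.35 ± 0.09, adjusted p = 7.73e-14). Its partner Krt18 was at 163 to 185 against 2.19 to 4.05 (5.44 ± 0.18, adjusted p = 3.17e-11). Krt19 was at 147 to 210.0 against 2.71 to 12.16 and Cldn6, a tight junction claudin of early embryos, at 113 to 140.3 against 3.41 to 6.64. Epcam, a surface adhesion protein, was at 266 and 268 in D8 and 212 and 225 in D10, against 26.7 and 26.3 in riPSC and 36.9 and 43.0 in mESC (2.86 ± 0.08, adjusted p = 5.82e-12).

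E-cadherin and other parts of the junction were held by both sides. Cdh1, which encodes E-cadherin, was at 104 and 94.9 in D8 and 120.2 and 128 in D10, against 73.2 and 78.2 in riPSC and 61.4 and 69.5 in mESC. The groups did not overlap, and the difference of 0.65 ± 0.07, adjusted p = 2.6e-06 was under the 2-fold threshold, though it was 1.02 and called after quantile normalization. Cldn4 (69.0 to 81.5 against 29.6 to 64.0) and Elf3 (75.3 to 102 against 47.2 to 63.3) were not called. Nor were Jup, the junction protein plakoglobin (18.97 to 21.8 against 30.2 to 53.7, -0.97 ± 0.11), and Spint1, a protease inhibitor of epithelia (-0.89 ± 0.12), both of which leaned towards the lines. Among brush border genes only Aqp8, Myo1d (8.38 to 10.9 against 0.654 to 0.715) and Pdzk1 (5.12 to 15.6 against 0.292 to 1.86) of 11 tested were higher.

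Markers of other lineages were mixed. Of 10 trophoblast genes 4 were higher and 2 lower, against 15.4% and 14.1% of all genes tested. The summed level of the list ran from 44.6 to 63.1 FPKM in D8 and D10 and from 37.1 to 58.9 in the lines. Cdx2, the homeobox factor of trophectoderm and of the later gut, was at 19.4 and 20.9 in D8 and 16.9 and 17.9 in D10 and listed at 0 in all 4 line libraries. Elf5, a factor of trophoblast stem cells, was at 5.43 and 5.45 in D8 and 2.27 and 2.45 in D10 against at most 0.0433. Gata2 was at 10.97 to 17.2 against 0.672 to 2.79. Tfap2c, another trophoblast factor that naive cells also use, was lower (0.497 to 3.92 against 16.5 to 32.6, -3.18 ± 0.18, adjusted p = 5.47e-09), as was Tead4 (-1.52), whose call was lost with a pseudocount of 0.1. Gata3 stayed at or under 1.03 in D8 and D10 and was not called.

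Endothelial markers were higher in 4 of 8 and lower in 1, against 15.4% and 14.1% of all genes tested. Flt1, a receptor for vascular endothelial growth factor, was at 36.7 to 45.9 against 0.363 to 0.982 (4.75 ± 0.09, adjusted p = 3.1e-13). Cdh5, the cadherin of endothelial cells, was at 15.3 and 14.4 in D8 and 9.82 and 9.83 in D10 and listed at 0 in the lines. Kdr, the receptor that defines early endothelial cells, stayed at 0.219 to 0.564 and was not called, and Eng was lower (3.21 to 5.29 against 14.2 to 27.0). Of 6 tested genes of stratified epithelium 4 were higher, among them Krt6a (6.94 and 7.56 in D8 and 3.22 and 3.25 in D10, listed at 0 in the lines) and Krt14 (3.14 to 7.38 against 0.0692 to 0.240). Krt17 was lower (0.860 to 1.84 against 5.43 to 7.72). Of 8 striated muscle markers 1 was lower, near the 14.1% of all genes tested. Of 6 neural ones 2 were lower, and none of either list was higher, against 15.4% of all genes tested. The part of any such cells in these differences was not tested.

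Genes of the starting fibroblasts were still present on the intermediate side and not absent on the other. Of 28 genes of fibroblast matrix and surface 12 were higher in D8 and D10 and 3 lower, with a median of 0.83. Their summed level was 8210.5 to 10288 FPKM on day 0, 1363 to 1396 in D8 and 761 to 794 in D10. In the lines it was 537 to 581 in riPSC and 682 to 760.2 in mESC. None of the 28 was at 0 on either side. Since the lines grew on feeder cells, RNA of feeders and RNA of the lines cannot be told apart here. Fewer cells of a type and less RNA per cell cannot be told apart in bulk samples. Col6a3, a chain of type VI collagen, was at 43.8 and 35.9 in D8 and 12.12 and 12.6 in D10, against 0.251 to 1.03 in the lines (3.88 ± 0.22, adjusted p = 6.34e-09). Lum, a small proteoglycan of matrix, was at 35.8 and 37.1 in D8 and 10.23 and 10.3 in D10 against 0.475 to 0.741 (3.72 ± 0.27, adjusted p = 8.49e-08). Thy1, a surface protein of fibroblasts, was at 123 and 127 in D8 and 19.8 and 22.1 in D10, against 2.36 and 2.60 in riPSC and 6.23 and 5.86 in mESC (3.41 ± 0.11, adjusted p = 2.3e-11). In all 3 genes D10 stood well below D8 and above the lines.

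Col1a1, the main chain of type I collagen, was not called: it was at 97.1 and 93.6 in D8 and 94.8 and 99.6 in D10, against 33.8 and 36.5 in riPSC and 68.3 and 72.9 in mESC (0.94 ± 0.16, adjusted p = 0.000148), without overlap. After quantile normalization the difference was 1.35 and called. Col1a2 was at 40.3 to 49.95 against 26.6 to 51.9 and Vim at 72.8 to 165 against 117 to 213, both overlapping and not called. Acta2 was not called either (4.26 to 20.9 against 3.23 to 14.9). The lower members were Lox, which crosslinks collagen (1.93 to 2.22 against 20.2 to 29.6, -3.05 ± 0.21, adjusted p = 3.78e-08), Fn1 (46.0 to 71.9 against 114 to 201) and Bgn (5.96 to 18.99 against 18.8 to 36.2).

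Mesenchymal transcription factors were higher in 6 of 12 and lower in none, with a median of 1.14. Twist2 was at 35.7 and 35.7 in D8 and 5.61 and 5.57 in D10 against 0.320 to 1.38 (3.12 ± 0.11, adjusted p = 4.44e-11). Twist1 was at 34.7 and 36.1 in D8 and 12.18 and 11.6 in D10 against 1.22 to 1.89 (3.07 ± 0.20, adjusted p = 2.85e-08), with D10 below D8 in both. Snai1, a repressor of Cdh1, was level over D8 and D10 at 12.9 to 14.0 against 1.08 to 2.33 (2.50 ± 0.15, adjusted p = 1.28e-08). Zeb1 was not called (1.04 to 2.42 against 2.42 to 4.74, -0.74 ± 0.19). Of 34 tested Hox genes, which hold positional memory in fibroblasts, 15 were higher and 2 lower, with a median of 0.79, at levels of at most 8.93 FPKM. After quantile normalization 10 were higher, with a median of 0.52. Hoxc4 (7.59 to 8.93 against 0.742 to 1.04) and Hoxc5 (2.82 to 5.62 against 0 to 0.122) led, and Hoxc12 and Hoxc13 were lower.

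Myeloid markers were lower in 5 of 10 tested members and higher in none. Their summed level was 13.8 to 15.6 FPKM in D8 and D10, 46.0 to 46.9 in riPSC and 86.6 to 88.8 in mESC. C1qa and C1qc, complement genes of macrophages, were listed at 0 in all 4 intermediate libraries and at 1.13 to 2.47 and 0.538 to 2.53 in the lines. Laptm5, a lysosomal membrane protein of blood cells, was at 4.15 to 5.02 against 30.7 to 57.3, a large part of the summed level of the lines. Lyz2, a macrophage lysozyme, was at 0.125 to 1.03 against 1.98 to 9.22. Whether the feeder layer of the lines held such cells was not tested.

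The AP-1 and immediate early genes, which respond within minutes to growth factors and stress, were higher in 11 of 13 and lower in none, with a median of 1.48. Fosb was at 75.3 and 79.6 in D8 and 34.5 and 39.8 in D10, against 0.0114 and 0.0133 in riPSC and 0.0437 and 0.131 in mESC (5.70 ± 0.07, adjusted p = 1.08e-14). Fos was at 105.2 and 102.5 in D8 and 39.2 and 41.0 in D10 against 1.35 to 2.14 (4.63 ± 0.29, adjusted p = 2.07e-08). Its partner Jun was at 116 and 114 in D8 and 43.5 and 44.4 in D10 against 1.68 to 2.42 (4.55 ± 0.15, adjusted p = 3.63e-11). Egr1, a zinc finger factor, was at 47.6 and 46.4 in D8 and 18.1 and 18.4 in D10 against 0.202 to 0.687 (4.40 ± 0.17, adjusted p = 1.34e-10). In each of these 4 genes both D10 libraries lay below both D8 libraries and far above the lines. Nr4a1 (0.15 ± 0.15) and Ier2 (-0.32 ± 0.10) were not called, and the lines held Ier2 at 55.6 to 68.5.

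ERK feedback genes, which report MEK activity, split into 2 higher, 2 lower and 10 not called, with a median of 0.19. These counts were near the shares of all genes tested, 15.4% higher and 14.1% lower. The medium of the lines holds a MEK inhibitor, whose part was not tested. Phlda1 was higher, at 66.0 and 66.8 in D8 and 25.6 and 28.0 in D10 against 1.56 to 2.34 (3.87 ± 0.12, adjusted p = 2.92e-11). The phosphatase Dusp4 was higher as well, at 18.9 and 17.1 in D8 and 8.33 and 9.54 in D10 against 1.37 to 2.29 (2.32 ± 0.12, adjusted p = 2.48e-09). Etv5 (4.24 to 6.205 against 67.3 to 102.7, -3.74 ± 0.15, adjusted p = 3.01e-10) and Etv4 (3.19 to 7.26 against 42.6 to 63.5, -3.17 ± 0.07, adjusted p = 9.96e-13), which naive cells are known to express, were lower. Dusp6, a phosphatase of ERK, was at 23.2 and 22.6 in D8 and 5.58 and 5.98 in D10, against 5.68 and 6.51 in riPSC and 7.81 and 10.6 in mESC. D8 was above the lines, D10 near the bottom of their range, and the pooled difference was 0.59 ± 0.16, adjusted p = 0.00471. Spry2 was not called (14.5 to 24.3 against 24.4 to 42.4). Among 8 FGF ligands and receptors 2 were higher and 3 lower. Fgfr2 (25.3 to 29.4 against 0.278 to 0.575, 4.28 ± 0.34, adjusted p = 1.83e-07) and Fgfr4 (15.4 to 24.1 against 0.820 to 1.01) were higher. Fgfr1 was lower (4.57 to 10.6 against 15.9 to 22.1, -1.28 ± 0.15, adjusted p = 6.51e-06). Fgf17 was listed at 0 in D8 and D10, like Fgf4, and stood at 6.58 to 11.1 in the lines.

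Wnt feedback genes were higher in 8 of 14 and lower in 1, with a median of 1.75; the medium of the lines holds a GSK3 inhibitor, which switches that pathway on. Nkd1, an inhibitor of Dishevelled, was at 10.13 to 19.5 against 0.415 to 0.732 (3.29 ± 0.24, adjusted p = 7.45e-08). Apcdd1, a membrane inhibitor, was at 9.37 to 22.0 against 0.476 to 0.602. Rnf43, the ligase that removes Wnt receptors, was at 6.06 to 8.53 against 0.0659 to 0.114, and Dkk1, a secreted inhibitor, at 4.03 to 7.78 against 0 to 0.115. The lower gene was Cdx1, a homeobox target (0 to 0.370 against 13.3 to 15.2, -3.70 ± 0.07, adjusted p = 1.63e-13), so the family members Cdx1 and Cdx2 went in opposite directions.

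Retinoid genes were higher in 9 of 16 and lower in 3, with a median of 1.64. Cyp26a1 and Cyp26b1 break down retinoic acid. Cyp26a1 was at 168 and 173 in D8 and 175 and 192 in D10, against 0 and 0 in riPSC and 0.105 and 0.197 in mESC. Cyp26b1 was at 52.3 and 51.5 in D8 and 19.8 and 20.5 in D10, against 0 and 0 in riPSC and 0.0807 and 0.134 in mESC. Their differences to mESC were 7.27 ± 0.12, adjusted p = 1.74e-13 and 4.92 ± 0.25, adjusted p = 4.18e-09. Stra6, the receptor that takes up retinol, was at 65.5 to 89.3 against 0.0168 to 0.322 (6.08 ± 0.15, adjusted p = 2.44e-12). Dhrs3, which turns retinal back to retinol, was at 20.4 to 36.4 against 0.861 to 1.61 (3.72 ± 0.10, adjusted p = 5.2e-12). The receptors Rara (5.10 to 6.35 against 16.1 to 20.4) and Rarg (2.75 to 5.75 against 10.3 to 14.3) were lower, as was the germ line target Stra8.

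In the BMP list 6 of 13 were higher and 1 lower, with a median of 0.65. Bmp2 was at 24.1 and 23.02 in D8 and 9.98 and 12.4 in D10 against 0 to 0.132 (4.02 ± 0.14, adjusted p = 6.96e-11), and Id2 at 5.24 to 21.5 against 0.874 to 2.51. Id1, the direct target of BMP signalling, was at 48.8 and 49.0 in D8 and 16.2 and 18.3 in D10, against 2.33 and 3.44 in riPSC and 12.6 and 13.9 in mESC (2.03 ± 0.13, adjusted p = 1.67e-08). Fst, an activin and BMP antagonist, was at 11.1 to 27.0 against 2.92 to 3.65 (2.19 ± 0.70, adjusted p = 0.0139), and its call was lost with a pseudocount of 0.1. Smad7, the inhibitory Smad, was lower (4.43 to 6.43 against 21.8 to 27.4, -1.96 ± 0.12, adjusted p = 1.28e-08). In the TGF-beta list 6 of 18 were higher and 3 lower, against 15.4% and 14.1% of all genes tested, with a median of 0.61. Tgfbr2, the type II receptor, was at 29.1 to 47.2 against 0.308 to 1.24 (4.48 ± 0.15, adjusted p = 3.8e-11), while Tgfbr1 was not called (6.41 to 7.86 against 3.75 to 4.51). Among the lower members the calls of 2 were lost on some settings. Ccn2 (-1.01) was -0.96 both with median-of-ratios scaling and with the length trend removed, and -0.97 and -0.98 without D10 replicate 2 and mESC replicate 2. Acvr2b (-1.06) was -0.999 with median-of-ratios scaling and without D8 replicate 2.

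Of 18 p53 targets 3 were higher and 2 lower, near the shares of all genes tested (15.4% and 14.1%), with a median of 0.44. Cdkn1a, which encodes p21, was at 136 and 132 in D8 and 66.8 and 72.5 in D10, against 76.7 and 77.1 in riPSC and 63.5 and 67.6 in mESC, with D10 overlapping the lines and no call (0.44 ± 0.17, adjusted p = 0.0382). Mdm2 was at 51.9 to 80.9 against 36.0 to 47.0, not called. Plk2 was higher (22.4 to 55.9 against 4.70 to 9.49, 2.26 ± 0.13, adjusted p = 6.41e-09). Bax, a pore-forming protein of apoptosis, was lower (61.3 to 81.8 against 185 to 206, -1.45 ± 0.09, adjusted p = 1.45e-08), as was Bbc3 (-1.44). Of 7 inhibitors of cyclin-dependent kinases 2 were higher and none lower. Cdkn1c, an imprinted one, was higher (9.25 to 16.2 against 0.493 to 1.21, 2.87 ± 0.09, adjusted p = 2.99e-11), as was Cdkn2b (1.42). Cdkn2a was at 15.7 to 33.1 against 18.4 to 22.3, not called.

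More chromatin genes were lower than higher. Of 9 enzymes and cofactors of DNA methylation 5 were lower and 1 higher, with a median of -1.02. Dnmt3l, the cofactor of the de novo enzymes, was at 0.138 and 0.267 in D8 and 2.54 and 2.12 in D10, against 19.1 and 22.2 in riPSC and 71.5 and 75.6 in mESC (-4.33 ± 0.11, adjusted p = 2.64e-12), with mESC above riPSC. Tet1, which oxidises methylcytosine, was at 0.566 to 0.873 against 12.05 to 16.8 (-3.17 ± 0.09, adjusted p = 5.83e-12). Uhrf1, which brings Dnmt1 to replicated DNA, was at 25.7 to 36.3 against 169.6 to 216 (-2.60 ± 0.11, adjusted p = 3.55e-10), and Dnmt1 at 21.9 to 26.3 against 63.0 to 70.3. Tet3 was the higher gene (1.23), and its call was lost with the length trend removed (0.998) and with quantile normalization (0.98).

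Of 29 Polycomb genes 9 were lower and 2 higher, with a median of -0.61. Cbx7, the chromobox protein of PRC1 in embryonic stem cells, was at 6.51 and 5.19 in D8 and 4.46 and 4.84 in D10, against 79.4 and 87.5 in riPSC and 90.4 and 94.9 in mESC (-3.84 ± 0.10, adjusted p = 2.67e-12). Phc1, another PRC1 subunit, was at 5.95 to 6.85 against 81.6 to 96.3 (-3.58 ± 0.15, adjusted p = 2.69e-10). Ezh2, the methyltransferase of PRC2, was at 17.1 to 18.96 against 65.5 to 85.2 (-1.94 ± 0.10, adjusted p = 2.65e-09) and Mtf2 at 21.1 to 28.0 against 72.6 to 93.2. Ezh1 (15.3 to 21.8 against 7.53 to 10.3, 0.97 ± 0.18) and Bmi1 (0.84 ± 0.16) were not called. The paralogs Phc2 (1.08) and Phc3 (1.20) were higher; with the length trend removed they were 0.99 and 0.96. Phc2 was 0.94 with the mitochondrial genes left out of the scaling and Phc3 was 0.97 after quantile normalization, both short of a call. Of 15 genes of H3K9 methylation 5 were lower and 1 higher, with a median of -0.81. Trim28, the corepressor that recruits Setdb1, was at 138 to 167 against 396 to 544 (-1.58 ± 0.08, adjusted p = 1.87e-09). Cbx1, an HP1 protein, was at 27.7 to 29.1 against 80.4 to 89.9. Setdb1 was not called (-0.16 ± 0.13). Suv39h1 was higher, at 22.3 to 34.1 against 5.87 to 8.095 (1.91 ± 0.20, adjusted p = 1.92e-06).

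Genes of growth and division were lower by moderate amounts. Of 18 genes of DNA replication 12 were lower and none higher, with a median of -1.32. Ccne1, the cyclin of S phase entry, was at 12.6 to 16.9 against 58.5 to 75.6 (-2.09 ± 0.11, adjusted p = 2.61e-09). The helicase subunit Mcm5 was at 33.3 to 36.0 against 128 to 141 (-1.92 ± 0.13, adjusted p = 4.08e-08), and Mcm3 at 39.7 to 45.4 against 143 to 156. Of 14 mitotic genes 5 were lower and none higher, with a median of -0.98. The number lower depended on the scaling, with 9 when the mitochondrial genes were left out and 3 after quantile normalization. Ccnb2 was lower (28.4 to 29.3 against 69.5 to 100.3, -1.48 ± 0.12, adjusted p = 2.1e-07) and Top2a was not called (-0.91 ± 0.12). Mki67, a marker of all cycling cells, was at 11.46 to 15.1 against 11.8 to 14.0, with overlap and no call (0.00 ± 0.07). The sign of this difference changed with the setting.

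Nucleolar factors of ribosome biogenesis were lower in 10 of 18 and higher in none, with a median of -1.03. In all 18 every D8 and D10 library lay below every line library, against 33.2% of all genes tested. The number lower was 7 after quantile normalization and 11 with the mitochondrial genes left out of the scaling. Dkc1, the pseudouridine synthase of small nucleolar RNPs and telomerase, was furthest apart, at 16.9 and 16.0 in D8 and 15.1 and 16.6 in D10, against 119.8 and 119.8 in riPSC and 89.0 and 102 in mESC (-2.65 ± 0.15, adjusted p = 4.9e-09). Rrp9 was at 20.8 to 23.6 against 76.6 to 91.4 (-1.85 ± 0.13, adjusted p = 5.42e-08). Ncl was at 102.7 to 119 against 208 to 238 and just short of a call (-0.98 ± 0.11). Of 79 ribosomal protein genes 6 were lower and 1 higher, both under the shares of all genes tested, 14.1% and 15.4%. Their median was -0.42, and in 53 of the 79 the libraries did not overlap with D8 and D10 below, against 33.2% of all genes tested. The higher one was Rpl34, which stood at 348 to 442 in D8 and D10 and at 393 and 398 in riPSC but at 26.2 and 31.0 in mESC. Ribosomal protein genes have many near-identical processed copies, and such values are uncertain. Its call was lost when each side was fitted as 1 mean.

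The metabolic lists moved apart from one another. Glycolysis was lower in 13 of 18 and higher in none, with a median of -1.29. Pfkp, a phosphofructokinase, was at 20.9 and 20.3 in D8 and 9.69 and 10.4 in D10, against 79.8 to 107 in the lines (-2.63 ± 0.16, adjusted p = 1.22e-08). Pdk1, which closes the entry to the citric acid cycle, was at 6.05 to 7.43 against 23.02 to 33.0 (-1.90 ± 0.15, adjusted p = 2.03e-07). Pgk1 was at 179 and 179 in D8 and 113 and 120.2 in D10 against 478 to 545 (-1.83 ± 0.12, adjusted p = 2.07e-08). Pkm, the pyruvate kinase, was at 551 and 542 in D8 and 274 and 299.7 in D10 against 1166 to 1465 (-1.72 ± 0.07, adjusted p = 3.09e-10). In Pfkp, Pgk1 and Pkm the D10 libraries were below those of D8. Ldha was just short of a call (329 to 504 against 731 to 829.7, -0.93 ± 0.11), and Gapdh, which has many processed copies and is uncertain, was not called (0.20 ± 0.22).

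The serine and one-carbon enzymes, which feed nucleotide synthesis and methylation, were lower in 13 of 15 and higher in none, with a median of -1.57. Mthfd2, the mitochondrial folate enzyme, was at 6.94 and 7.13 in D8 and 3.73 and 3.79 in D10, against 72.6 and 77.9 in riPSC and 47.5 and 52.6 in mESC (-3.33 ± 0.11, adjusted p = 4.19e-11). Amt, of the glycine cleavage system, was at 3.82 to 5.02 against 41.3 to 54.0 (-3.20 ± 0.10, adjusted p = 1.59e-11). Asns, the asparagine synthetase, was at 45.3 and 44.4 in D8 and 105.1 and 101 in D10 against 314 to 426 (-2.44 ± 0.12, adjusted p = 1.47e-09). Psph, the last step of serine synthesis, was at 7.33 to 8.48 against 35.6 to 52.7 (-2.28 ± 0.11, adjusted p = 1.26e-09). Asns alone of these 4 was higher in D10 than in D8. Gcat (-0.80 ± 0.10) and Mat2a (-0.33 ± 0.14) were not called. Cholesterol synthesis was lower in 8 of 18 and higher in none, with a median of -0.98. The number lower was 6 with median-of-ratios scaling and 10 with the mitochondrial genes left out. Dhcr7 (15.9 to 22.1 against 49.2 to 52.996, -1.43 ± 0.14, adjusted p = 1.02e-06) and Mvd (10.7 to 15.7 against 32.4 to 38.8, -1.39 ± 0.07, adjusted p = 1.05e-09) led.

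Genes of mitochondrial respiration encoded in the nucleus gave no call in 20 members by limma. An unadjusted p under 0.05 was reached by 11 of the 20, against 73.4% of all genes tested. Their median was -0.16, and it turned to 0.16 after quantile normalization. Cox4i1 was at 505 to 546 against 415 to 456 (0.29 ± 0.10) and Atp5b at 625 to 710.3 against 1008 to 1086 (-0.66 ± 0.09). Of the 10 tested genes of mitochondrial DNA 2 were higher, with a median of 0.78. These were mt-Cytb (4004 to 4409 against 1491 to 2217, 1.20 ± 0.40, adjusted p = 0.0168) and mt-Nd5 (1214 to 1791 against 622 to 688, 1.18 ± 0.33, adjusted p = 0.00656). The difference of mt-Cytb was 0.95 and not called after quantile normalization. mt-Nd4l was not called (1.51 ± 1.83, adjusted p = 0.475). That standard error rests on all 18 libraries, including early days on which the share of mt-Nd4l in the FPKM sum differed between replicates. The share was 0 and 0.951% on day 0 and 2.14 and 6.49% on day 4. In the 8 libraries compared it did not overlap, at 41.9 to 44.0% in D8 and D10 against 20.03 to 27.7% in the lines. The missing call therefore does not show that the sides were alike in this gene. mt-Co1 was at 12557 to 14157 against 7009 to 7962 and not called (0.80 ± 0.35). Fatty acid oxidation was higher in 6 of 12 and lower in none, with a median of 1.03. Acadl, a long-chain dehydrogenase, was at 33.4 to 39.7 against 6.02 to 7.05 (2.37 ± 0.12, adjusted p = 3.24e-09). Ppargc1a, a coactivator of mitochondrial genes, was at 2.9996 to 3.88 against at most 0.00683. Etfdh was at 26.7 to 33.9 against 8.16 to 10.4 (1.57 ± 0.17, adjusted p = 2.48e-06). Cpt1a was split between the lines, at 37.6 and 40.0 in riPSC and 18.8 and 19.98 in mESC, and not called, and Acadm leaned towards the lines (-0.53 ± 0.09).

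**Figure D4:**
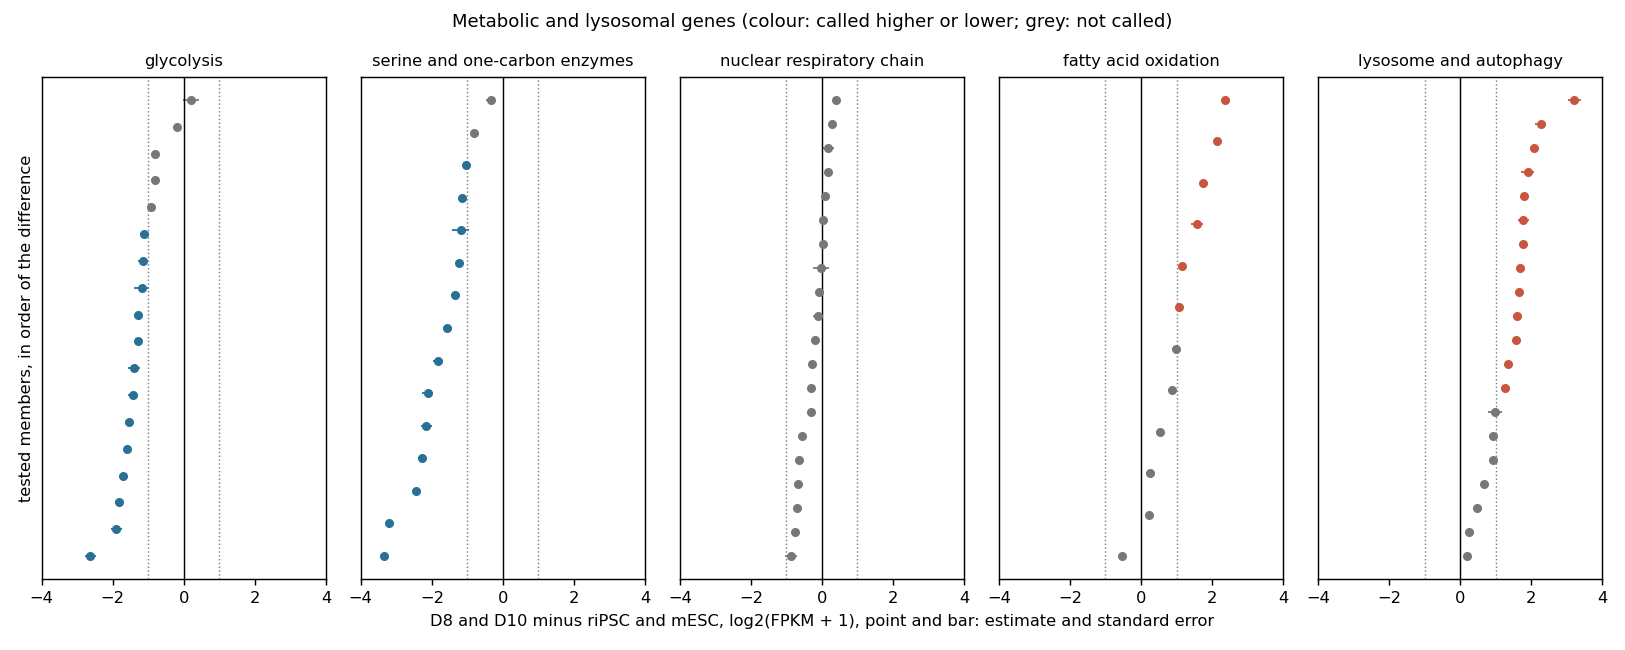
Difference between D8 and D10 and the lines, in log2(FPKM + 1), for each tested member of 5 metabolic and lysosomal lists, in order of size; points are limma estimates, bars standard errors, dotted lines the 2-fold threshold, and grey points were not called. Glycolysis and one-carbon members lie to the left, respiratory chain members around 0, and fatty acid oxidation and lysosome members to the right.

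Lysosomal genes were higher in 13 of 20 and lower in none, with a median of 1.58. In 19 of the 20 all D8 and D10 libraries lay above all line libraries, against 32.3% of all genes tested. The cathepsins, proteases of the lysosome, led. Ctsl was at 561 and 548 in D8 and 535 and 571 in D10, against 59.1 and 61.9 in riPSC and 54.1 and 59.5 in mESC (3.22 ± 0.18, adjusted p = 5.69e-09). Ctsb was at 244 and 246 in D8 and 182 and 182 in D10 against 37.3 to 48.7 (2.27 ± 0.15, adjusted p = 2.75e-08). Ctsd was at 438 to 568 against 111 to 123 (2.08 ± 0.10, adjusted p = 1.1e-09). Lamp2, a membrane glycoprotein of the lysosome, was at 102 to 112 against 22.7 to 32.0 (1.91 ± 0.18, adjusted p = 1.15e-06). Npc2, which carries cholesterol out of the lysosome, was not called (0.19 ± 0.08).

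Antigen presentation by MHC class I was higher in 8 of 9, with none lower and a median of 1.49. B2m, the common light chain, was at 411 and 435 in D8 and 359 and 348 in D10, against 39.5 and 41.5 in riPSC and 57.0 and 67.6 in mESC (2.92 ± 0.20, adjusted p = 4.31e-08). H2-K1, a heavy chain, was at 89.7 to 158 against 22.8 to 39.6 (1.95 ± 0.14, adjusted p = 6.24e-08). Tap1 and Tap2, which carry peptides into the endoplasmic reticulum, were at 12.8 to 14.5 against 2.93 to 4.14 and at 4.21 to 5.22 against 0.582 to 0.873. Tapbp was not called (0.62 ± 0.09). H2 genes are similar in sequence and differ between mouse strains, so their values are uncertain. Interferon-stimulated genes were higher in 5 of 16 and lower in 1, with a median of 0.90. They were led by Oasl2 (29.9 to 36.5 against 2.82 to 5.25, 2.75 ± 0.17, adjusted p = 1.64e-08) and Ifit2 (3.33 to 10.6 against 0 to 0.320); Oas1a was lower (-1.11). Among chemokines and adhesion genes 7 of 14 were higher and 2 lower, with a median of 1.00. Lif, which encodes the cytokine added to the medium of the lines, was at 10.6 to 15.3 against 1.58 to 3.003 (2.16 ± 0.18, adjusted p = 3.28e-07). Icam1 was lower (6.22 to 9.64 against 29.1 to 39.3, -1.95 ± 0.23, adjusted p = 5.95e-06).

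Imprinted genes were higher in 12 of 22 and lower in 4, with a median of 1.21. The neighbours Igf2 and H19, which are read from opposite parental copies of 1 cluster on chromosome 7, were both among the largest differences of the comparison. Igf2, a fetal growth factor, was at 381 and 569.5 in D8 and 195 and 248 in D10, against 0.558 and 0.689 in riPSC and 1.33 and 1.60 in mESC (7.33 ± 0.21, adjusted p = 8.05e-12). H19, its noncoding neighbour, was at 2286 and 2300.0 in D8 and 1278 and 1309 in D10, against 7.38 and 7.17 in riPSC and 15.0 and 15.7 in mESC (7.21 ± 0.14, adjusted p = 2.28e-13). In both genes D8 lay above D10 in all libraries and mESC above riPSC. Peg10, a domesticated retrotransposon gene of the placenta, was at 97.03 to 175 against 1.92 to 8.38 (4.66 ± 0.21, adjusted p = 7.32e-10), with D10 above D8. The lower members were Snrpn (10.8 to 14.8 against 40.6 to 91.9, -2.15 ± 0.13, adjusted p = 1.01e-08), Zdbf2 (0 to 0.0524 against 3.21 to 3.73), Phlda2 (0 to 1.93 against 3.87 to 9.71) and Meg3 (46.4 to 67.4 against 85.2 to 162, -1.08). The difference of Meg3 was -0.85 and not called after quantile normalization. Xist, the RNA that silences 1 X chromosome in female cells, was at 2.88 and 2.71 in D8 and 4.30 and 4.05 in D10, against 0.1002 and 0.119 in riPSC and 0.1101 and 0.173 in mESC (1.98 ± 0.08, adjusted p = 1.94e-10). The labels do not give the sex of the embryos or lines, so its part in the difference in X-linked genes was not tested.

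Placed along the course, the genes that set the intermediate apart were mostly kept on day 12. Of the 2533 higher genes, 664 (26.2%) stood at or above the midpoint between the 2 sides on day 0, on the log2 scale, 1456 (57.5%) on day 6 and 1928 (76.1%) on day 12. Of the 2324 lower genes, 527 (22.7%) were at or above the midpoint on day 0, 394 (17.0%) on day 6 and 249 (10.7%) on day 12. Day 12 holds no library of the comparison itself. Pou5f1 was among the exceptions, at 528 and 558 on day 12, and Dppa5a also lay nearer to the lines by then (776 and 784), while Nanog was at 1.76 and 1.76 and Sox2 at 3.80 and 3.86. Col4a1 was at 1043 and 1071 and Ctsl at 1251 and 1208 on day 12, above all D8 and D10 libraries. On the higher side, 1199 genes (47.3%) had a mean under 1 FPKM in the lines, and on the lower side 786 (33.8%) had a mean under 1 in D8 and D10.

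**Figure D5:**
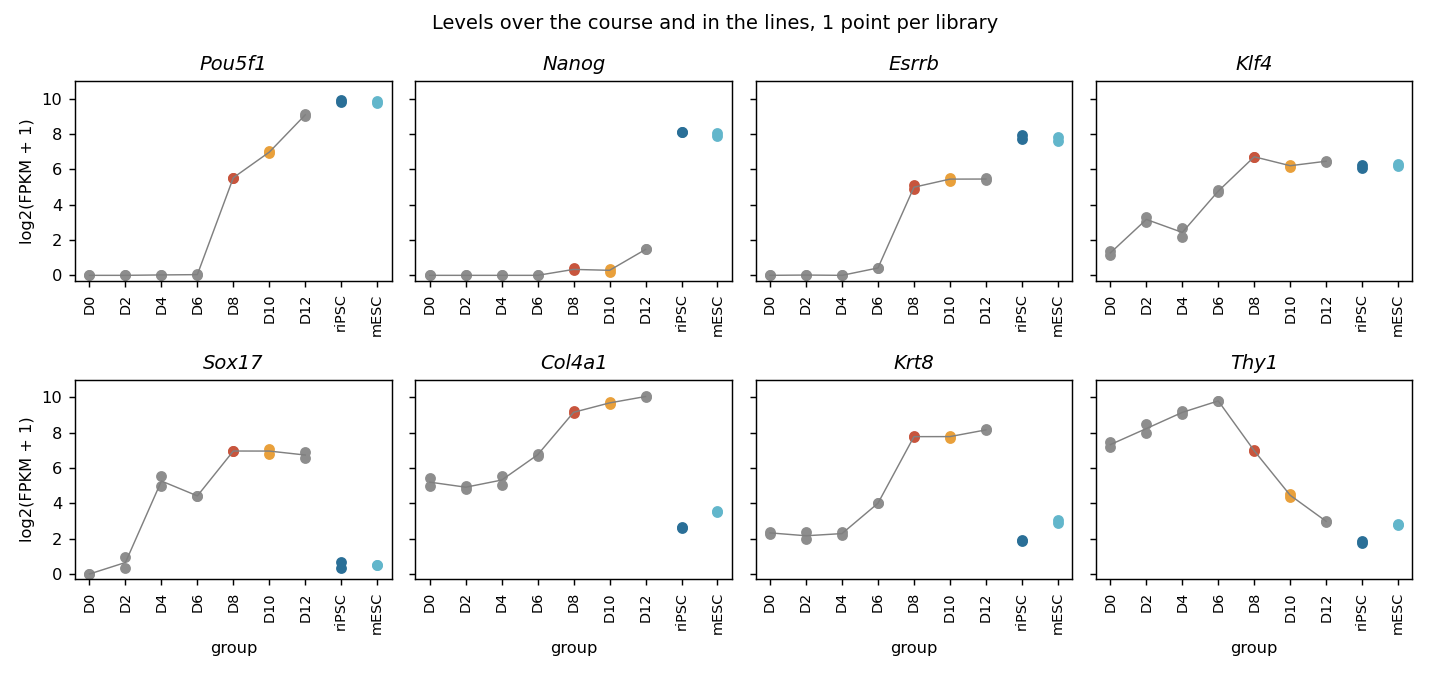
Level of 8 genes in each group in log2(FPKM + 1), with 1 point per library, coloured for D8, D10, riPSC and mESC and grey for the other days; the line joins the means of the days. Pou5f1 climbs through D8 (44.9 and 45.4 FPKM) and D10 (121 and 128) towards the lines, Nanog does not, Klf4 lies near the level of the lines, and Thy1 falls from D8 to D10.

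Within the intermediate side, D10 differed from D8 by far more losses than gains, as the counts above give. Among the genes described here, Thy1 fell from 123 and 127 to 19.8 and 22.1 (-2.52 ± 0.15, adjusted p = 1.17e-06). Twist1 fell from 34.7 and 36.1 to 12.18 and 11.6 (-1.50 ± 0.28, adjusted p = 0.00486), and Dusp6 from 23.2 and 22.6 to 5.58 and 5.98 (-1.82 ± 0.22, adjusted p = 0.000207). Pou5f1 rose by 1.45 ± 0.09, adjusted p = 1.5e-06, and Asns (1.18 ± 0.17, adjusted p = 0.000619) and Dnmt3l (1.47 ± 0.15, adjusted p = 6.8e-05) rose as well. Within the other side, riPSC and mESC differed in Zfp42 (-1.05 ± 0.13, adjusted p = 0.000142) and Krt8 (-1.08 ± 0.13, adjusted p = 0.000115). Olig2, a neural factor, was at 11.1 and 12.7 in riPSC and listed at 0 in both mESC libraries; D8 and D10 held at most 0.105, and its pooled call was lost when each side was fitted as 1 mean.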

How the data were processed

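Total RNA was sequenced in 18 libraries, 2 in each of 9 groups, and 8 of them form this comparison. The authors deposited 1 FPKM value per gene and library; per the submitters' processing notes, fastp 0.20.1, HISAT2 2.2.1 and StringTie 2.0 were used with the build mm10. The annotation release, the counting settings and the pairing of these tools with steps are not given in the sources used here. The files do not state the unit, and FPKM was inferred from the values and the use of StringTie. Gene symbols, coordinates and exonic lengths come from the GENCODE annotation, and promoter sequences from the RefSeq table for GRCm38.p6. These sources can place the start of a gene differently, as they do for Krt8.

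Of 55401 genes, the 16439 with at least 1 FPKM in at least 2 libraries of the series were tested. log2(FPKM + 1) was fitted with limma 3.58.1 in R 4.3.3, with 1 mean per group over all 18 libraries, so that all groups share 1 estimate of spread with 9 residual degrees of freedom, and the contrast set the mean of D8 and D10 against the mean of riPSC and mESC. The fit was tested on simulated data. FPKM are not counts, so no count model was run. Precision at low levels is limited by the estimated 16400000 to 20700000 read pairs.

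Named genes are the 12 highest and the 12 lowest differences among called genes with at least 10 FPKM on the higher side and no overlap, a fixed set, and from each list up to 4 called members in each direction with any members given as not called. Members of 3 lists that would be named by this rule are counted but not reported here by name. The members and lists were chosen with earlier results of these data known. Shares were compared by exact permutation tests. Alternatives changed the pseudocount, the filter, the scaling, the variance model, the libraries fitted, the fold threshold, the replicate block and each replicate in turn. Figures were drawn with matplotlib 3.10.9.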

Additional observations from a re-analysis of the deposited data

Results flagged for a closer look

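The 46 genes with the largest differences or of the fixed set were looked at again where the 2 days of the intermediate, or the 2 lines, differed from each other by at least 2-fold with an adjusted p under 0.05 (limma), since the pooled comparison averages over them. Between the days, D10 minus D8 on the log2(FPKM + 1) scale, Thy1 differed by -2.52 ± 0.15 (SE; adjusted p = 1.17e-06), Dusp6 by -1.82 ± 0.22 (adjusted p = 0.000207), Twist1 by -1.50 ± 0.28 (adjusted p = 0.00486), Sprr2a2 by -1.28 ± 0.24 (adjusted p = 0.00434) and Igf2 by -1.08 ± 0.29 (adjusted p = 0.0347). Pou5f1 differed by 1.45 ± 0.09 (adjusted p = 1.5e-06) and was the one gene of these 6 with more in D10. Over all 271 genes that the naming rule covers, 29 were lower and 5 higher in D10 by the same test, and Asns and Dnmt3l were among the higher ones. In Dusp6 the difference between the days, 1.82 in size, exceeded the pooled difference to the lines.

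Between the lines, riPSC minus mESC, Lama1 differed by -1.36 ± 0.26 (adjusted p = 0.00443), Clu by -1.28 ± 0.14 (adjusted p = 5.16e-05), Khdc3 by -1.28 ± 0.09 (adjusted p = 1.34e-06), Krt8 by -1.08 ± 0.13 (adjusted p = 0.000115), Zfp42 by -1.05 ± 0.13 (adjusted p = 0.000142) and Thy1 by -1.02 ± 0.15 (adjusted p = 0.000714). These 6 were below in riPSC. Over the 271 genes 14 were lower and 8 higher in riPSC, and Rpl34 (3.75 ± 0.13, adjusted p = 2.32e-09), Apoa2 and Olig2 were the furthest above. Clu, Krt8, Lama1 and Thy1 stood far above both lines in D8 and D10, Zfp42 and Khdc3 far below both.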

How the results depend on the processing

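The counts depended most on the threshold and the pseudocount. For genes higher and lower in D8 and D10 than in both lines, a pseudocount of 5 gave 1059 and 1141, no fold threshold 5750 and 5960, and at least 4-fold 814 and 572. Against riPSC the same settings gave 1087 and 1244, 5205 and 5595, and 840 and 639. Against mESC they gave 1098 and 1130, 5407 and 5317, and 831 and 567. Between riPSC and mESC they gave 78 and 49, 1225 and 851, and 41 and 21, with 518 and 383 at a pseudocount of 0.1 and 201 higher under a filter of 5 FPKM. Between D10 and D8 they gave 12 and 112, 520 and 1202, and 2 and 41, with 156 and 666 at a pseudocount of 0.1. Scaling without the mitochondrial genes moved the median of all genes by -0.11 and gave 2269 higher and 2861 lower. Leaving out 1 library, whose partner is then assumed to vary like the other groups, gave 2466 to 2608 higher and 2218 to 2413 lower. The mitochondrial share differed by 18.56 to 21.48 percentage points without 1 library, where 4 against 3 cannot reach the threshold.

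With the replicate number as a block the pooled counts were 2531 and 2326, and no named gene lost its call. The numbers do not pair the samples: deviations of same-numbered libraries correlated at -0.061 to 0.154 and not every pair was over 0.1.

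Counts of called list members also moved with the scaling. With the mitochondrial genes left out, the lower members rose from 0 to 2 for junctions and keratins, from 1 to 3 for BMP (also after quantile normalization), and from 0 to 1 for cyclin-dependent kinase inhibitors and for nuclear respiration. After quantile normalization 5 p53 targets were higher, and with it or the length trend removed 3 ribosomal protein genes were lower. With median-of-ratios scaling 4 Polycomb genes were higher and 1 gene of chemokines and adhesion lower.

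No called gene named here changed direction under any alternative. Of uncalled ones, Klf5 turned to 0.011 with median-of-ratios scaling and 0.30 after quantile normalization. Mki67 turned to -0.14 without mitochondrial genes, -0.18 with the length trend removed and ran from -0.05 to 0.052 without single replicates. The cause was not tested. Uncalled genes near the threshold passed on some settings: Lamb2 (1.001 to 1.046) and Ezh1 (to 1.018) without D8, riPSC or mESC replicate 2 in turn, Jup (-1.002 and -1.004) without riPSC or mESC replicate 1, and Ncl (-1.019) without mESC replicate 1. With another scaling Cldn4, Elf3, Mdm2, Sall4, Spint1, Ldha and Top2a passed as well, and with a pseudocount of 0.1 Apoa2, Foxa3, Gata3, Kdr, Zeb1 and Zscan4f did. Depth limits the genes under about 1 FPKM, where few read pairs stand behind a value.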
